A study of Mus musculus with 6 samples.

Results

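Histone H3 acetylation (H3ac) was measured at 10 genes of the Notch pathway in cultured mouse mesenchymal stem cells (MSCs), stromal progenitors that can form bone and fat. The genes were the receptors Notch1, Notch2 and Notch3, the ligand Jag1, the nuclear factors Rbpj and Maml1, and the targets Hes1, Hey1, Heyl and Nrarp. An H3ac region was assigned to a gene where it overlapped the gene body extended by 5 kb on both sides (GENCODE M21, mm10). This rule took 20 of 24431 regions, and 0 of the 10 genes lacked a region.

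CUT&RUN sequences the DNA that an antibody-bound nuclease cuts loose next to the mark. The 6 libraries formed 3 groups of 2. The Young group was untreated MSCs of animals aged 3 to 5 months, and the Old group was untreated MSCs of animals aged 18 to 22 months. The OldAcetate group had the age of Old and was given sodium acetate at 5 mM for 3 days. Cells of every group were kept at 2% oxygen, and strain and genotype are not given in the sources used here. Nothing in the labels says whether the libraries of a group came from separate mice or cultures, so p-values measure the spread between these libraries, which may be technical.

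Notch receptors are cleaved when a ligand on a neighbouring cell binds them, and the released intracellular domain moves to the nucleus. There it binds RBPJ, a DNA-binding protein that otherwise holds corepressors, and MAML coactivators, which bring in histone acetyltransferases. Genes of the Hes and Hey families are the classical targets and encode transcriptional repressors. In bone, Notch signalling is known for keeping stromal progenitors from maturing into osteoblasts. H3ac marks active promoters and enhancers.

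The RBPJ core motif TGGGAA was searched on both strands of the 250 bases upstream of each main start site. The target genes Hes1, Heyl and Nrarp are shown because they hold 0 to 2 copies of the motif RBPJ reads. Sequences are those of GRCm38.p6 (mm10), written 5′ to 3′ on the strand of the gene, and capitals mark the motif. The windows lie at chr16:30065090-30065339 on the + strand (Hes1), chr4:123233306-123233555 on the + strand (Heyl) and chr2:25180508-25180757 on the + strand (Nrarp), each ending next to the start site and overlapping no annotated exon.
Hes1: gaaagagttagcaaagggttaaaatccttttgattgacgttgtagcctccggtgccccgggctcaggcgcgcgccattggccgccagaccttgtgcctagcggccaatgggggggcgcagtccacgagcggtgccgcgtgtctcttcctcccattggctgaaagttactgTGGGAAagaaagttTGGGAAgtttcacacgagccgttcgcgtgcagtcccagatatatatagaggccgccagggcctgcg
Heyl: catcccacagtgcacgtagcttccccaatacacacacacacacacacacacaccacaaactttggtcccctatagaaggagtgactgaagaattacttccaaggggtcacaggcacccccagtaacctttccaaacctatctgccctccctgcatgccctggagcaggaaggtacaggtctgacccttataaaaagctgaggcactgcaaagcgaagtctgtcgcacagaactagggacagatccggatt
Nrarp: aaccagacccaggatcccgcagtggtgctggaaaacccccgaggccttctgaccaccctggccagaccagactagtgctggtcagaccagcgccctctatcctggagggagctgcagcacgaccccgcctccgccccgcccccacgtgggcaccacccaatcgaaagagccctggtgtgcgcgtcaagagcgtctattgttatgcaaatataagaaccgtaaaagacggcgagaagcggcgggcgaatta

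Hes1 held 2 copies on its own strand, 80 to 75 and 66 to 61 bases before the start. Heyl and Nrarp held 0. Of the other windows reported here, that of Rbpj held 1 copy on the opposite strand, 190 to 185 bases before the start, and those of Notch1, Notch2, Notch3, Jag1 and Maml1 held 0. Of 21847 protein-coding promoters of the same length, 21.8% held a copy. Hes1 carried 19 CG dinucleotides in its window, Nrarp 18 and Heyl 4, where the median promoter carried 9. A match of letters is a description of the window and not a bound site.

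An H3ac region covered the main start site of each of the 10 genes, which held for 11888 of 21864 protein-coding genes (54.4%). Rbpj carried 6 regions, Notch1, Notch2, Notch3, Jag1 and Maml1 carried 2 each, and Hes1, Hey1, Heyl and Nrarp carried 1 each. The 20 regions had a median length of 11750 bp against 5500 bp over all regions. Lengths of 20 kb or more were found in 6 of 20 (30%) and in 6.99% of all regions. They lay at Rbpj (23000 to 52500 bp), Notch1 (23000 bp) and Notch2 (83500 bp) only. Among the start regions of all genes, the 10 ran from length percentile 42.9 at Hey1 to 99.8 at Notch2, so length was not shared by the set. Region names hold the codes Y, O and AC, which the labels do not define. All 3 codes stood in 19 of the 20 regions, as in 80.6% of all regions, and only AC and Y in 1 Rbpj region (chr5:53630501-53642000), as in 12.1%.

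**Figure D1:**
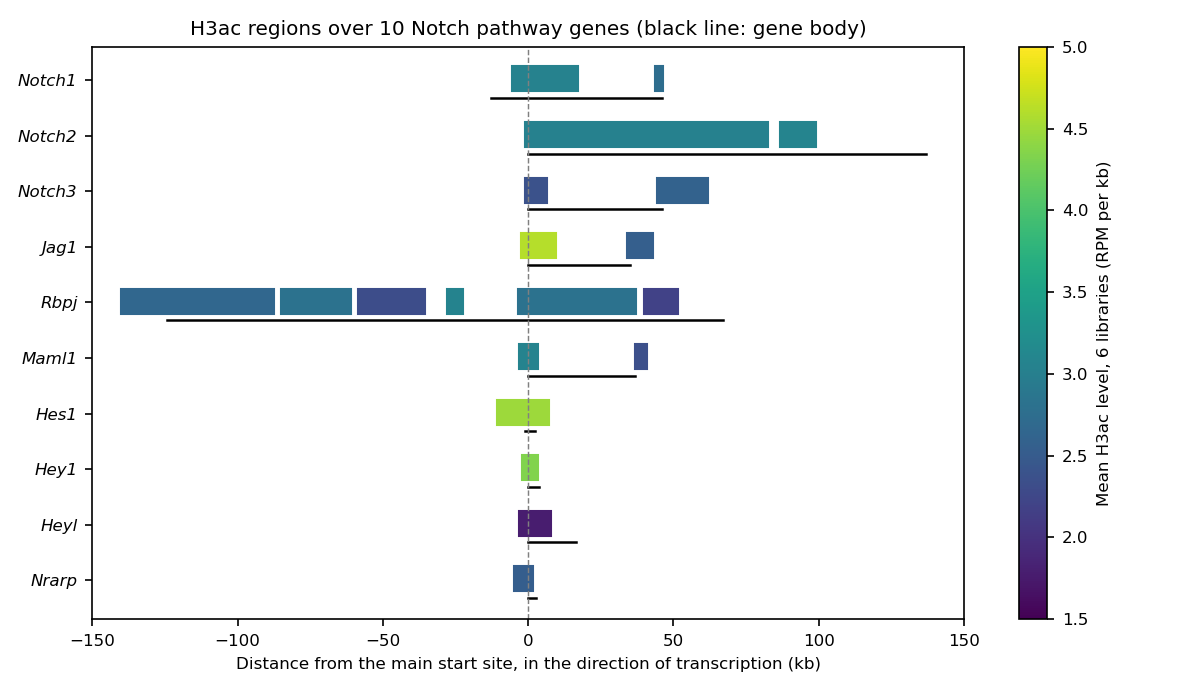
Each bar is an H3ac region drawn to scale against the distance in kb from the main start site of its gene (dashed line), coloured by the mean level of 6 libraries in RPM per kb. Black lines are gene bodies. Every gene has a bar over the dashed line, and Rbpj has 6 bars on both sides of it.

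Values are RPM, the reads of a region after each library was brought to the same total. To compare genes, RPM was divided by region length. The level of the region over the start site ran from 1.77 RPM per kb at Heyl to 4.62 at Jag1, where the median start region of all genes had 3.07. In order, Jag1 (4.62 ± 0.644, SD over 6 libraries) was followed by Hes1 (4.49 ± 0.738) and Hey1 (4.33 ± 0.745). The 3 lay between percentiles 93.2 and 95.9 of all start regions. Their order among themselves did not exceed the spread, since Jag1 was above Hes1 in 4 of 6 libraries and Hes1 above Hey1 in 3 of 6.

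Hey1 was above the next gene, Maml1 (3.07 ± 0.489 RPM per kb), in 6 of 6 libraries. Maml1, Notch1 (3.05 ± 0.611), Notch2 (3.02 ± 0.430), Rbpj (2.82 ± 0.307), Nrarp (2.53 ± 0.633) and Notch3 (2.38 ± 0.321) followed. Neighbours in this stretch changed places between libraries, each being above the next in 3 to 5 of 6. Heyl closed the order with 1.77 ± 0.376 RPM per kb and was below Notch3 in 6 of 6 libraries. It lay at percentile 0.286 of all start regions, whereas the targets Hes1 and Hey1 were near the upper end.

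**Figure D2:**
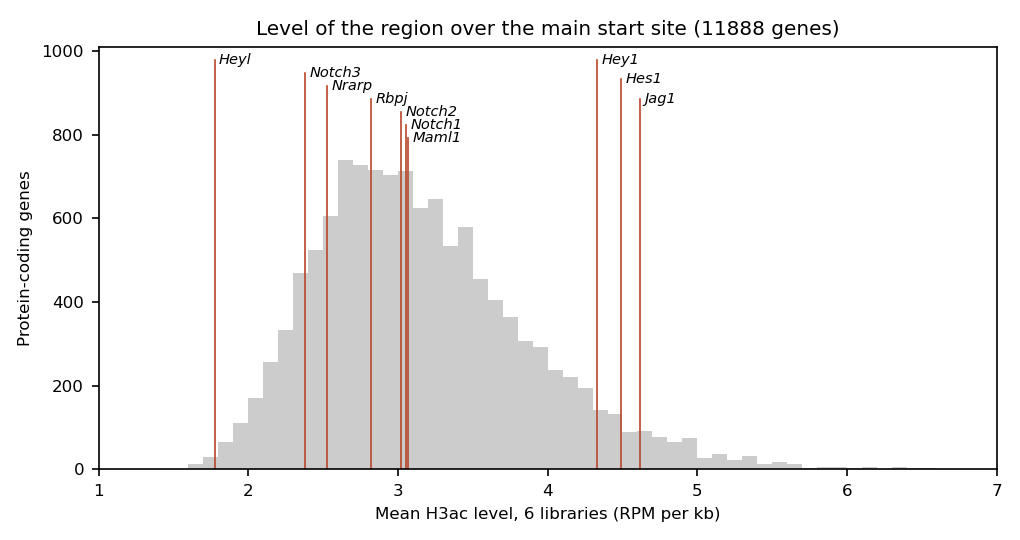
The grey histogram counts protein-coding genes (y axis) by the mean level over 6 libraries of the region on their main start site (x axis, RPM per kb, 11888 genes). Red lines mark the 10 Notch genes. Jag1, Hes1 and Hey1 stand in the upper tail between 4.33 and 4.62, and Heyl in the lower tail at 1.77.

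The receptor genes bind the ligand and give the signal its intracellular part. Over the Notch1 start (chr2:26486501-26509500, 2 of 34 exons), H3ac was 87.8 and 75.2 RPM in Young replicates 1 and 2, 58.7 and 48.9 RPM in Old and 72.6 and 78.0 RPM in OldAcetate. Both Old libraries lay below the other 4. For this order, here and at the genes below, the share of all regions was not counted. Pair by pair, 60.2% of all regions had both Old libraries below both Young libraries. In 47.1% of all regions both OldAcetate libraries were above both Old libraries. The Old mean was 53.8 ± 6.92 RPM (SD, n = 2), which was 66.0% of the Young mean of 81.5 ± 8.97 RPM, and the OldAcetate mean was 75.3 ± 3.83 RPM. A region of 2.5 kb at the 3′ end of Notch1 (chr2:26457501-26460000) held 9.54 and 9.40 RPM in Young, 5.09 and 5.57 RPM in Old and 4.70 and 6.67 RPM in OldAcetate. Here both aged groups lay below Young, on only 11 to 29 reads per library.

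Notch2 carried the longest region of the 10 genes. It spans 83.5 kb from the start site into the gene (chr3:98012501-98096000, 5 of 34 exons), which is at percentile 99.8 of start region lengths. It held 310.9 and 245.5 RPM in Young, 214.9 and 215.6 RPM in Old and 263.1 and 262.4 RPM in OldAcetate. The Old libraries lay below the other 4, and the Young libraries differed from each other by more than Young replicate 2 differed from Old. The second Notch2 region (chr3:98100001-98112500) had 51.0 and 38.4 RPM in Young, 33.3 and 31.0 RPM in Old and 37.3 and 40.0 RPM in OldAcetate. Old was again lowest.

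Notch3 is the receptor known from mural cells of blood vessels. Its start region (chr17:32160501-32168000) held 18.4 and 20.8 RPM in Young, 17.6 and 13.9 RPM in Old and 16.8 and 19.6 RPM in OldAcetate. Old and OldAcetate overlapped. The region over its 3′ end and the sequence beyond (chr17:32105001-32122500) had 59.2 and 42.5 RPM in Young, 47.2 and 35.0 RPM in Old and 43.0 and 44.2 RPM in OldAcetate, and all 3 groups overlapped.

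Jag1 encodes the ligand, which is presented on the surface of the signalling cell. Its start region (chr2:137107001-137119000) held 66.5 and 57.6 RPM in Young, 44.8 and 48.5 RPM in Old and 56.1 and 58.8 RPM in OldAcetate. Old lay below the other 4 libraries, and OldAcetate overlapped Young. At the 3′ end of Jag1 (chr2:137073501-137082500), the values were 26.0 and 24.1 RPM in Young, 25.4 and 16.7 RPM in Old and 18.8 and 26.7 RPM in OldAcetate, so the groups overlapped.

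Rbpj, the DNA-binding centre of the pathway, was covered over 72.7% of its extended body. The start region (chr5:53587001-53627500, 2 of 11 exons) had 128.3 and 122.9 RPM in Young, 97.5 and 101.0 RPM in Old and 121.0 and 114.3 RPM in OldAcetate. Both Old libraries were below the other 4. Upstream of it, within the annotated gene but in no exon of the main transcript, the region chr5:53505501-53529500 held 81.9 and 56.0 RPM in Young, 72.1 and 58.1 RPM in Old and 64.2 and 73.4 RPM in OldAcetate. Those groups overlapped, with Young replicate 2 the lowest of the 6 libraries. The largest region, chr5:53450501-53503000, had 167.1 and 143.8 RPM in Young, 129.4 and 115.7 RPM in Old and 132.7 and 147.2 RPM in OldAcetate. In the other 3 Rbpj regions the values lay between 13.5 and 61.5 RPM.

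Maml1 encodes the coactivator that joins RBPJ and the Notch intracellular domain. Its start region (chr11:50289001-50295500), which also reaches into the body of Canx, held 22.4 and 18.4 RPM in Young, 17.6 and 16.7 RPM in Old and 19.5 and 25.0 RPM in OldAcetate. Old was lowest, and OldAcetate overlapped Young. A region just beyond the 3′ end (chr11:50251501-50255500) held between 7.40 and 10.2 RPM in the 6 libraries.

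Among the targets, Hes1 had a region reaching over its whole gene (chr16:30054501-30072500, 4 of 4 exons), the gene whose window holds 2 RBPJ motifs above. The values were 96.7 and 92.3 RPM in Young, 75.8 and 59.7 RPM in Old and 83.7 and 76.7 RPM in OldAcetate. The 3 groups did not overlap, with Young highest and Old lowest, although Old replicate 1 and OldAcetate replicate 2 nearly met. The share of all regions with the 3 groups apart in this order was not counted. The Young mean was 94.5 ± 3.12 RPM, the Old mean 67.7 ± 11.4 RPM and the OldAcetate mean 80.2 ± 4.90 RPM (SD, n = 2 each).

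Hey1, a target of the Hey family, departed from this order. Its region (chr3:8664001-8669500, 5 of 5 exons) held 26.0 and 18.8 RPM in Young, 25.4 and 20.3 RPM in Old and 29.9 and 22.5 RPM in OldAcetate. All 3 groups overlapped. Heyl (chr4:123230501-123241500, 3 of 5 exons) had 23.0 and 22.5 RPM in Young, 15.3 and 16.7 RPM in Old and 15.5 and 24.2 RPM in OldAcetate. Its OldAcetate libraries differed, with 1 within the range of Old and 1 above Young.

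Nrarp encodes a small ankyrin-repeat protein induced by Notch that limits the signal. Its region (chr2:25176001-25182500, the single exon) had 22.4 and 20.0 RPM in Young, 16.2 and 14.7 RPM in Old and 11.1 and 14.2 RPM in OldAcetate. Nrarp was the 1 region of the 20 (5%) in which both OldAcetate libraries were below both Old libraries, beside 3.46% of all regions. The OldAcetate mean of 12.6 ± 2.19 RPM was 81.8% of the Old mean of 15.5 ± 1.04 RPM and 59.6% of the Young mean of 21.2 ± 1.67 RPM. These values rest on 33 to 68 reads per library.

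**Figure D3:**
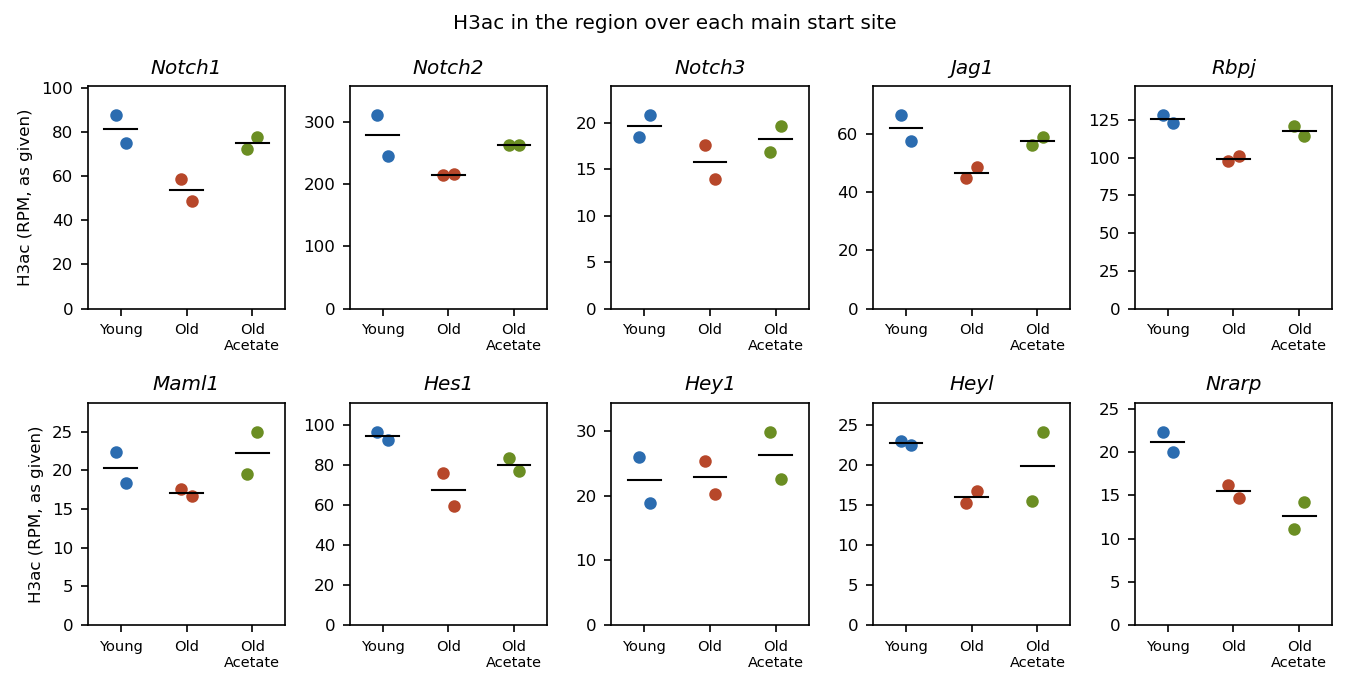
Each panel shows a Notch gene, with the RPM of the region over its main start site on the y axis (linear, from 0) and the 3 groups on the x axis. Points are libraries, with replicate 1 to the left, and lines are group means of n = 2. The Old mean is lowest in most panels, and 60.2% of all regions had both Old libraries below both Young libraries. All 3 groups overlap at Hey1, and Old and OldAcetate overlap at Notch3 and Heyl. Nrarp is lowest in OldAcetate at 11.1 and 14.2 RPM.

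The first comparison, Old vs Young, asks whether H3ac at these genes differs with age. In the values as given, 15 of 20 regions (75%) had both Old libraries below both Young libraries, beside 60.2% of all regions, and 0 had them above, beside 1.29%. The median log2 change of the 20 was -0.34, and that of all regions was -0.35. The median of the Notch regions thus lay next to that of the table as a whole. Reads inside regions made up 64.8% and 57.8% of the Young libraries, 49.9% and 45.9% of the Old libraries and 57.3% and 56.3% of the OldAcetate libraries. Since RPM is relative to the library total, this share is the summed RPM of all regions and not a second observation. Fewer cells with the mark and less mark per cell cannot be told apart here, nor can either be told apart from a difference in the signal over background of the libraries.

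Without scaling between libraries, limma called 3 of the 20 regions at an adjusted p under 0.05, beside 9.52% of all regions. All 3 were start regions and lower in Old. Notch1 had a log2 change of -0.60 (SE 0.15, limma adjusted p = 0.0129), Hes1 -0.49 (SE 0.14, adjusted p = 0.0249) and Notch2 -0.36 (SE 0.10, adjusted p = 0.0220). Hey1 was the only region of the 20 with a change above 0, at 0.04 (SE 0.21, limma adjusted p = 0.904). These calls changed when single libraries were left out. The log2 changes stayed below 0 under each omission. They ran from -0.73 to -0.47 at Notch1, from -0.66 to -0.32 at Hes1 and from -0.53 to -0.19 at Notch2. Calls over all regions moved as well. Without Young replicate 1 limma called 0 of the 20, beside 0.0368% of all regions, and without Old replicate 2 also 0, beside 2.03%. Without Old replicate 1 it called Notch1 and Hes1 (13.3% of all regions), and without Young replicate 2 it called 5 (8.74%). Without OldAcetate replicate 1 or 2, which leaves the compared groups as they are, it called only Notch1 (2.64% and 2.96% of all regions).

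After the shift shared by all regions was removed by median scaling, limma called 0 of the 20 regions, beside 0.00819% of all regions (2 of 24431). An unadjusted p under 0.05 was reached by 2 of the 20 in limma (5.54% of all regions), and edgeR on the recovered reads called 0, with 2 at that level (5.19% of all regions). The scaled median was 0.01 over the 20 and -0.00 over all regions, with 11 regions above 0 and 9 below. Notch1 at its start was lower than the bulk of the regions by a log2 change of -0.25 (SE 0.12, 95% interval -0.48 to -0.01, limma adjusted p = 0.894). The upstream Rbpj region had the lowest p, with 0.29 (SE 0.13, 95% interval 0.03 to 0.54, limma adjusted p = 0.890). Leaving out Young replicate 1 gave 0.48 and leaving out Young replicate 2 gave 0.094, and the change was -0.065 without scaling. Hey1 had 0.39 (SE 0.19, 95% interval -0.00 to 0.78, limma adjusted p = 0.894).

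The remaining start regions were close to the shift of the whole table. Their scaled changes were -0.01 at Notch2, 0.03 at Notch3, -0.05 at Jag1, 0.01 at Rbpj, 0.11 at Maml1, -0.14 at Hes1, -0.15 at Heyl and -0.09 at Nrarp. Leaving out a library took Hes1 from -0.25 (Old replicate 1) to -0.027 (Old replicate 2), Heyl from -0.27 (Old replicate 2) to -0.023 (Old replicate 1) and Maml1 from 0.057 (Young replicate 2) to 0.17 (Young replicate 1). The 2 longest start regions, with the most reads, had the narrowest intervals, from -0.15 to 0.13 at Notch2 and from -0.18 to 0.20 at Rbpj. At Nrarp the interval ran from -0.55 to 0.36, and at Heyl from -0.58 to 0.29.

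**Figure D4:**
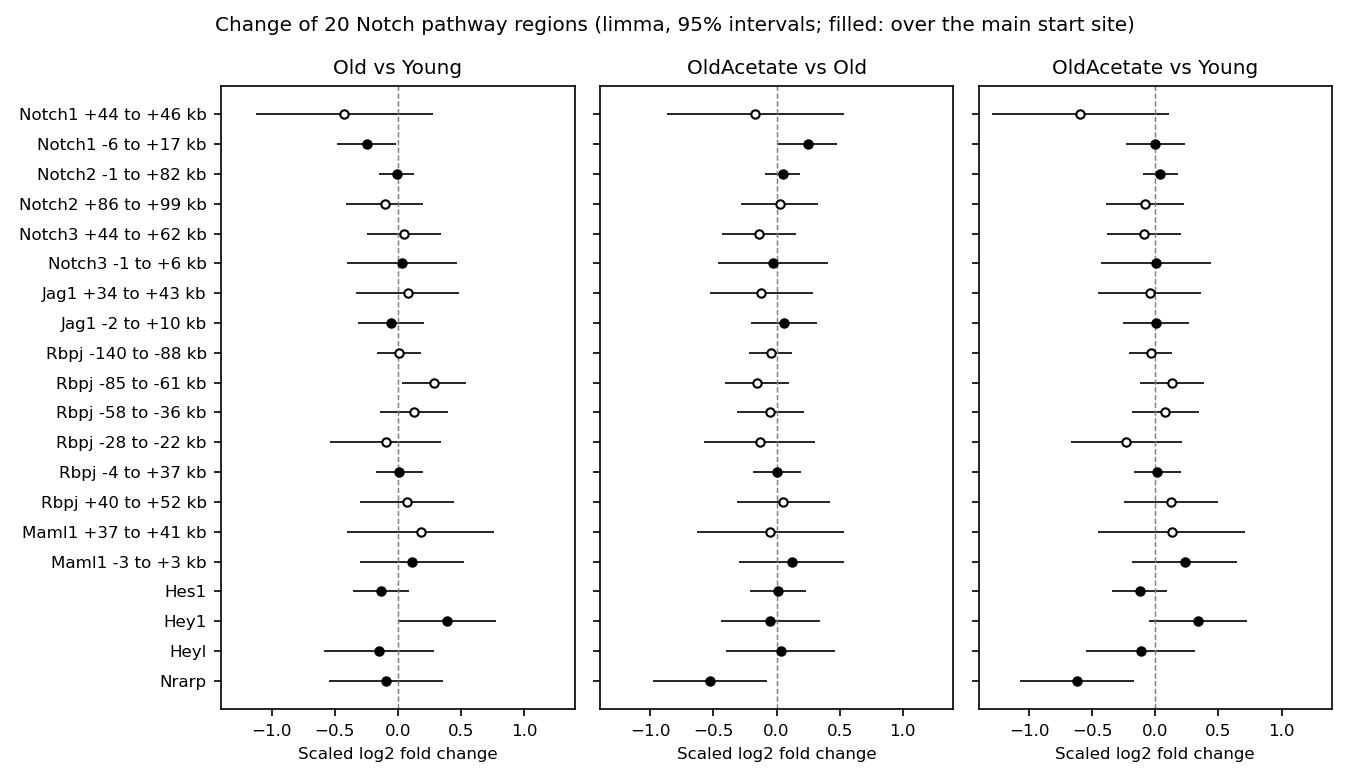
Scaled log2 fold change (x axis) of the 20 Notch regions (rows, named by gene and distance from the main start site) in the 3 comparisons, from limma with 95% intervals. Filled circles are regions over the main start site. Most intervals include 0, and those that lie wholly to a side of it are Notch1 and an upstream Rbpj region in the left panel, Notch1 and Nrarp in the middle and Nrarp on the right.

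The second comparison, OldAcetate vs Old, asks whether acetate alters H3ac in aged cells, which can turn acetate into the acetyl-CoA that histone acetylation draws on. It uses the same Old libraries as the first, so a high or low value in those libraries moves the 2 comparisons in opposite directions. In the values as given, 9 of 20 regions (45%) had both OldAcetate libraries above both Old libraries, beside 47.1% of all regions. The median log2 change was 0.20 over the 20 and 0.24 over all regions. limma without scaling called 0 of the 20, beside 0.311% of all regions, with 2 at an unadjusted p under 0.05 (18% of all regions). Notch1 at its start came nearest, at 139.9% of the Old mean and a log2 change of 0.49 (SE 0.15, limma adjusted p = 0.0963). Leaving out Old replicate 1 took the Notch1 change to 0.62 and leaving out Old replicate 2 took it to 0.36. At Notch2 the change was 0.29 with all libraries and also without Young replicate 1 or 2, as Young is not compared here. A call at Notch2 that appeared on leaving out a Young library thus came without any move of its change.

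With scaling, limma called 0 of the 20 regions, beside 0% of all regions, with 2 at an unadjusted p under 0.05 (6.24% of all regions), and edgeR called 0 with 1 at that level (5.34%). The scaled median was -0.04 over the 20 and 0.00 over all regions. Nrarp had the lowest p, with a log2 change of -0.53 (SE 0.23, 95% interval -0.98 to -0.07, limma adjusted p = 0.769). As given its change was -0.29 (SE 0.24, limma adjusted p = 0.523), where 19 of the 20 regions were above 0. Notch1 at its start had 0.25 (SE 0.12, 95% interval 0.01 to 0.48, limma adjusted p = 0.777). The other start regions lay between -0.05 at Hey1 and 0.12 at Maml1, with 0.05 at Notch2, 0.06 at Jag1, 0.00 at Rbpj and 0.01 at Hes1.

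The third comparison, OldAcetate vs Young, sets treated aged cells beside young ones, with the libraries of both earlier comparisons. In the values as given, 5 of 20 regions (25%) had both OldAcetate libraries below both Young libraries, beside 29.8% of all regions, and the median change was -0.11 over the 20 and over all regions. limma called 0 of the 20 with or without scaling, beside 0% of all regions in both fits, with 1 at an unadjusted p under 0.05 in each (5.08% of all regions with scaling and 6.1% without), and edgeR called 0 with 1 at that level (6.76%). In limma that region was Nrarp, with a scaled change of -0.62 (SE 0.23, 95% interval -1.07 to -0.17, limma adjusted p = 0.963). The Notch1 start region had 0.00 (95% interval -0.23 to 0.24), Hes1 -0.13 (-0.35 to 0.10) and Hey1 0.34 (-0.05 to 0.73). The scaled median of the 20 regions was 0.00.

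Summed over the 20 regions, H3ac was 1318 and 1113 RPM in Young, 994.3 and 906.8 RPM in Old and 1104 and 1135 RPM in OldAcetate. The group means were 1215 ± 145 RPM, 950.5 ± 61.9 RPM and 1120 ± 22.3 RPM (SD, n = 2 each). Old lay below the other groups, and OldAcetate overlapped Young. Notch2 and Rbpj supplied most of each sum. For the whole table of 24431 regions, the mean summed RPM was 613200 ± 49840 (Young), 479100 ± 28220 (Old) and 567900 ± 7102 (OldAcetate). Both Old libraries were lowest there too, and both OldAcetate libraries lay below both Young libraries. The order of the Notch means was thus that of the table as a whole. With 2 libraries against 2, an exact permutation test of a single value cannot give a p below 0.333.

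**Figure D5:**
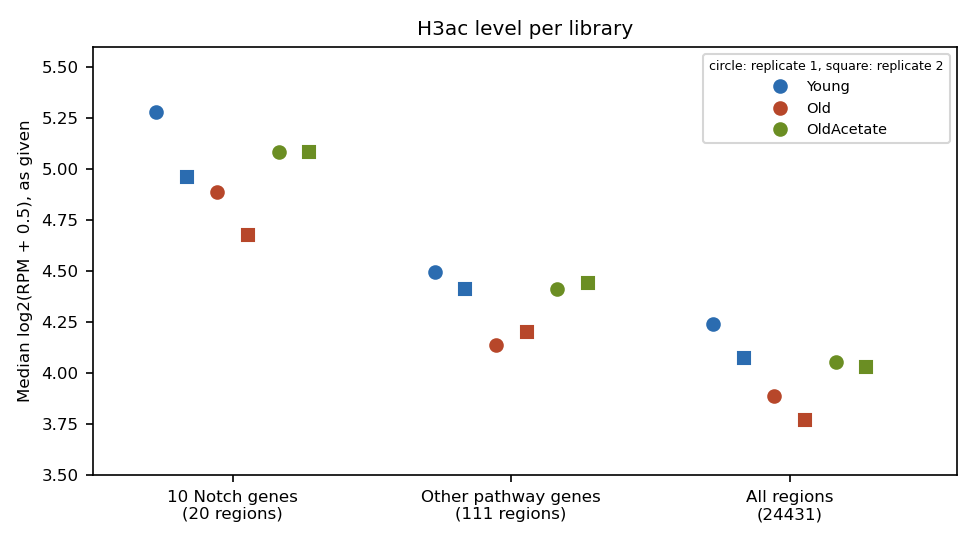
The y axis gives the median of log2(RPM + 0.5), as given, for each library over the 20 Notch regions, 111 regions of other pathway genes and all 24431 regions (x axis). Circles are replicate 1 and squares replicate 2, coloured by group. In each set both Old libraries lie lowest, and the OldAcetate libraries lie near or within the Young range.

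The other genes of the pathway were taken from a list of 57, covering the remaining receptor, ligands, proteases, glycosyltransferases, ubiquitin ligases, coactivators, corepressors and further targets. A region was found at 53 of them, and 48 had a covered start site. The ligand genes Jag2 and Dll3, the fringe glycosyltransferase Mfng and the ubiquitin ligase Dtx1 had none, and Notch4 had a region but none on its start. The 53 genes gave 111 regions, 0 of them shared with the 10 genes above.

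With scaling, limma called 0 of the 111 regions in each comparison, with 4, 9 and 10 (3.6%, 8.11% and 9.01%) at an unadjusted p under 0.05, taken in the order of the comparisons above, beside 5.54%, 6.24% and 5.08% of all regions. edgeR called 0 in each, with 2, 6 and 11 at that level, beside 5.19%, 5.34% and 6.76% of all regions. The scaled medians were 0.03, 0.00 and 0.04. Without scaling, 11 regions (9.91%) were called by limma in Old vs Young, beside the background of 9.52% above, all lower in Old. In OldAcetate vs Old 1 (0.901%) was called, beside 0.311% of all regions, and 0 in OldAcetate vs Young, beside 0%.

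These included the start regions of the ligand Dll1 (log2 change -0.62), the gamma-secretase subunit Psenen (-0.53), the fringe enzyme Lfng (-0.43), the acetyltransferase Kat2a (-0.84) and the repressor Hey2 (-0.77), a region in Neurl1a (-0.41) and 4 regions in Maml2. Hey2, Dll1, Kat2a, Psenen, Lfng and the Neurl1a region had both Old libraries below the other 4. A Maml2 region did not, with 15.1 RPM in OldAcetate replicate 1 and 15.7 RPM in Old replicate 1. These regions were picked as called lower in Old, and the share of all regions with this order was not counted. Hey2 held 20.7 and 27.0 RPM in Young, 16.6 and 11.1 RPM in Old and 19.2 and 23.4 RPM in OldAcetate. The limma adjusted p of these named regions lay between 0.0106 and 0.0499. Their calls did not hold under every omission of a library, and calls over all regions moved under the same omissions.

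The lowest p of the list in both comparisons with Old came from a region of 1 kb in Maml2 (chr9:13525501-13526500). It held 5.59 and 2.04 RPM in Young, 0 and 0.795 RPM in Old and 3.36 and 4.59 RPM in OldAcetate, which is 2 reads in both Old libraries together. With scaling its limma adjusted p was 0.737 in the age comparison and 0.397 in OldAcetate vs Old, and as given it was 0.0164 and 0.0455. In OldAcetate vs Young the lowest p was at the start of Adam17, the protease that sheds Notch ectodomains (chr12:21368001-21376500), with 0.44 (SE 0.17, limma adjusted p = 0.963).

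Markers of the labelled cell type were covered, since 7 of 7 MSC markers (Ly6a, Pdgfra, Pdgfrb, Thy1, Eng, Nt5e and Cd44) had a region on the start site, at 1.88 to 3.29 RPM per kb. Of the hematopoietic markers, Csf1r was covered, while Ptprc, Spi1, Itgam and Cd3e were not. Endothelial markers had 0 of 5 start sites covered, and mural markers 2 of 5, Cspg4 and Myh11, without Rgs5, Kcnj8 and Abcc9. Off the start site but within 5 kb of the gene body, Spi1 held 1 region, Rgs5 2 and the endothelial markers 0 to 4 each. Ptprc, Itgam, Cd3e, Kcnj8 and Abcc9 held 0. Csf1r had 4.28 and 3.84 RPM per kb in Young, 3.05 and 1.99 RPM per kb in Old and 2.29 and 2.92 RPM per kb in OldAcetate. Summed over the covered starts, mural markers had 7.21 and 6.02 RPM per kb in Young, 5.01 and 4.64 RPM per kb in Old and 4.59 and 5.43 RPM per kb in OldAcetate. MSC markers had 23.9 and 20.2 RPM per kb in Young, 17.9 and 16.2 RPM per kb in Old and 21.3 and 21.7 RPM per kb in OldAcetate. Csf1r and the mural sum were highest in both Young libraries, and the MSC sum was lowest in both Old libraries. Singly, Cspg4 did not follow the mural order, and Ly6a, Eng and Nt5e did not follow the MSC order. These are values as given, from which the shift shared by all regions was not removed. The part of other cell types in the Notch levels was not tested.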

How the data were processed

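H3ac CUT&RUN values of 6 libraries (Young, Old and OldAcetate, n = 2 each) were taken from the deposited table of 24431 regions. The submitters' processing notes name Bowtie2, Picard and mm10, without versions. How regions were called, and whether the yeast DNA added at the stop of the reaction was used for scaling, is not given in the sources used here. The values deposited by the authors are RPM per region, although the table is named as RPKM. Within a library all values (100%) could be written as an integer times the same step (tolerance 0.01), which gave whole reads and library totals of 2163351 to 3039481. The median region held 31 to 56 reads. Counting errors cover counting only, since PCR copies are not independent molecules.

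Regions were assigned with GENCODE M21. Main transcripts were protein coding, APPRIS principal and basic, with the best support level and then the longest. limma 3.58.1 (R 4.3.3; trend, robust) was fitted to log2(RPM + 0.5) of all 6 libraries and all regions, once the libraries had been centred on a common median deviation from the mean of each region ("with scaling") or without that step ("as given"). On this scale the pseudocount shrinks the change of regions with few reads. The Benjamini-Hochberg adjustment ran over 24431 regions, and the threshold was 0.05. edgeR 4.0.16 with RLE factors on the recovered reads was an alternative, as were other pseudocounts, quantile normalization, a filter on low regions, a replicate block, smaller fits and omission of each library. Omission of a library together with no scaling was added after seeing the data. The fits were tested on simulated data.

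The 10 genes, the list of 57 pathway genes and the marker lists were chosen with earlier results of these data known. Named regions were those over the main starts, regions called by limma, and the lowest p per comparison and list. The remaining regions of the 10 genes were described after their values were seen. Some markers, list members and a promoter window are not reported here. Plots were made in Python 3.11.15 (matplotlib 3.10.9).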

Additional observations from a re-analysis of the deposited data

How the results depend on the processing

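With scaling, limma called 0 of the 20 Notch regions and 0 of the 111 regions of other pathway genes in each comparison under pseudocounts of 0.1 and 1, quantile normalization, a filter on the 25% of regions with the lowest mean level, a threshold of 0.01, fits of only the compared groups and each omission of a library, and edgeR also called 0. Library scaling decided the calls. Without it, limma called 3 Notch and 11 other regions in Old vs Young and 0 and 1 in OldAcetate vs Old. When a library was also left out, a choice made after seeing the data, Notch counts were 0, 1, 2 or 5 and other counts 0, 3, 10 or 11 in Old vs Young, 0 or 1 and 0, 1, 2 or 3 in OldAcetate vs Old, while OldAcetate vs Young gave 0 for both. Calls over all 24431 regions then ran from 9 to 3252 in Old vs Young, 0 to 441 in OldAcetate vs Old and 0 to 3 in OldAcetate vs Young. The median change of the 20 regions moved without scaling to -0.34, 0.20 and -0.11, and when a library was left out it ran from -0.045 to 0.023, -0.055 to 0.050 and -0.068 to 0.051. Bodies without extension or extended by 10 kb gave 19 and 23 regions.

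No pairing by replicate number was seen, as deviations of same-numbered libraries correlated at 0.01, -0.03 and -0.04. With a median of 31 to 56 reads per region, counting noise can hide a pairing, so these correlations cannot exclude it. The labels do not say whether libraries are paired. With the replicate number as a block limma called 0 Notch regions in each comparison.

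The scaled changes of Nrarp in both OldAcetate comparisons (-0.71 to -0.34 and -0.80 to -0.44), of Notch1 in Old vs Young (-0.32 to -0.18) and of Hey1 in Old vs Young (0.24 to 0.54) kept their sign whichever library was left out. The replicate block, among the other alternatives, leaves each log2 change as it is, so it could not turn a sign. Leaving out scaling moves every region of a comparison by the same amount, so small scaled changes of the opposite sign turn by construction. The cause of the remaining sign changes was not tested. Of 165 values for single regions under other alternatives, 142 kept direction and call, 3 passed the threshold without scaling (Notch1, Notch2 and Hes1, above) and 20 changed sign. Without scaling these were, in Old vs Young, Notch3 -0.32, Rbpj -0.34, Maml1 -0.24 and the upstream Rbpj region -0.065, in OldAcetate vs Old Notch3 0.21, Hey1 0.19 and the upstream Rbpj region 0.084, and for OldAcetate vs Young Notch1 -0.11, Notch2 -0.072, Notch3 -0.11, Jag1 -0.11 and Rbpj -0.095. With quantile normalization they were Notch2 0.0058 in Old vs Young, Rbpj -0.028 and Hes1 -0.0081 in OldAcetate vs Old, with Notch1 -0.0041, Notch3 -0.0067 and Jag1 -0.0092 in OldAcetate vs Young. A pseudocount of 0.1 turned Rbpj in OldAcetate vs Old to -0.00058, and a pseudocount of 1 turned Notch1 in OldAcetate vs Young to -0.00090.

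In Old vs Young, omission of an OldAcetate library hardly moved a change, as at Notch1 (-0.2459 and -0.2445 against -0.2458), and could hardly turn a sign. Leaving out a library turned the sign of 31 of 198 values, all of regions not called. In Old vs Young the ranges were -0.097 to 0.080 at Notch2, -0.13 to 0.20 at Notch3, -0.17 to 0.064 at Jag1 and -0.074 to 0.098 at Rbpj. In OldAcetate vs Old they were -0.015 to 0.11 at Notch2, -0.15 to 0.091 at Notch3, -0.058 to 0.18 at Jag1, -0.082 to 0.092 at Rbpj, -0.097 to 0.12 at Hes1, -0.24 to 0.14 at Hey1, -0.30 to 0.36 at Heyl and -0.070 to 0.31 at Maml1. In OldAcetate vs Young they were -0.062 to 0.066 at Notch1, -0.049 to 0.13 at Notch2, -0.16 to 0.17 at Notch3, -0.040 to 0.052 at Jag1, -0.033 to 0.068 at Rbpj, -0.44 to 0.21 at Heyl and -0.060 to 0.32 at the upstream Rbpj region.

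Depth limits the short regions. The lowest count in a Notch region was 11 reads, where counting error alone is 30.2% of the value, against 4.64% at the 465 reads of the Notch2 start region. A shift shared by all regions cannot be separated from library scaling, and yeast DNA was added to the reaction without a statement of its use.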
